A study of Homo sapiens with 8 samples.

Results

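The 10 genes described here are the CDK inhibitors CDKN1A, CDKN1B, CDKN2A, CDKN2B and CDKN2C, the D cyclins CCND1, CCND2 and CCND3, and the kinases CDK4 and CDK6. They were taken by name, as genes that govern entry into the cell cycle, from the 69215 genes listed in the count files. All 10 passed the filter on low counts and were among the 15931 genes tested. CDKN2B passed with few reads, between 10 and 41 per library.

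D cyclins bind CDK4 or CDK6, and the active kinases phosphorylate the RB protein, which releases E2F transcription factors and lets cells leave G1 for S phase. The INK4 inhibitors, encoded by CDKN2A, CDKN2B and CDKN2C, bind CDK4 and CDK6 and block their pairing with D cyclins. The CIP/KIP inhibitors p21 (CDKN1A) and p27 (CDKN1B) bind whole cyclin-CDK complexes and restrain the cyclin E kinase CDK2. Rhabdoid tumors lack SMARCB1, a core subunit of the SWI/SNF chromatin remodelers, and p16, p21 and cyclin D1 are among the cell cycle genes linked to that loss.

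Total RNA was sequenced from G401 cells, a SMARCB1-deficient line of kidney rhabdoid tumor origin. The cells carried a Tet-On construct for SMARCB1 or, as the control, for GFP, and received doxycycline (Dox, the inducer) at 0.1 µg/ml or an equal amount of DMSO for 12 h. This gave 4 groups of 2 libraries, called GFP DMSO, GFP Dox, SMARCB1 DMSO and SMARCB1 Dox. Plates were pooled within a condition, each construct is represented by a single engineered line, and p-values measure the spread between these libraries, which may be technical.

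The libraries held 29632090 to 37597477 reads assigned to genes. SMARCB1 had 0 reads in the 4 GFP-line libraries, 10 and 21 in SMARCB1 DMSO, and 30474 and 29383 in SMARCB1 Dox, as the labels say. The rhabdoid markers VIM, KRT8 and KRT18 were abundant in every library. Mitochondrially encoded genes took 27.9 and 23.9% of reads in SMARCB1 DMSO and 18.9 to 22.9% elsewhere. Levels below are CPM, the reads of a gene relative to all assigned reads of its library, scaled with TMM factors, and pairs of values are given as replicate 1, then replicate 2. A gene is called changed at an edgeR adjusted p (quasi-likelihood test, Benjamini-Hochberg over all genes tested) under 0.05.

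Of the 10 genes, 4 were called in SMARCB1 Dox against SMARCB1 DMSO, 3 higher and 1 lower. The stretch before a transcription start of each is shown because these are the genes whose RNA changed. Each is the 250 bases before a RefSeq start in GRCh38.p14, read 5′ to 3′ on the gene's strand, with capitals on GC boxes (GGGCGG on either strand), the letters bound by Sp1-family factors. The windows are chr7:92836574-92836823 (minus strand) for CDK6, chr6:41941809-41942058 (minus strand) for CCND3, chr6:36678464-36678713 (plus strand) for CDKN1A and chr12:12717118-12717367 (plus strand) for CDKN1B.
CDK6: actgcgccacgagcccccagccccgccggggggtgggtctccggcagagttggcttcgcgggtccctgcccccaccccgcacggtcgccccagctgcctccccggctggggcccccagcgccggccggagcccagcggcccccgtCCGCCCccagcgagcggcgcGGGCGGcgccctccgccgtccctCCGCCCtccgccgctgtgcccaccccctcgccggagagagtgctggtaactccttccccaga
CCND3: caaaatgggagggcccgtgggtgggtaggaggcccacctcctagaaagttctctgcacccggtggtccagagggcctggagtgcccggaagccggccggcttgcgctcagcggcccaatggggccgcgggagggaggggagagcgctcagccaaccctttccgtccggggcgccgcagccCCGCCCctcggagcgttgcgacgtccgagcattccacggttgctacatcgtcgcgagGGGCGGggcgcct
CDKN1A: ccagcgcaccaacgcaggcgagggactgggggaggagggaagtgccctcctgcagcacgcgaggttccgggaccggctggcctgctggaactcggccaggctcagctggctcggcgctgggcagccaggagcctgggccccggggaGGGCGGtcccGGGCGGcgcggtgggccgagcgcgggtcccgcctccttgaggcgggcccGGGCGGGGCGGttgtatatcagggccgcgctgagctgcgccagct
CDKN1B: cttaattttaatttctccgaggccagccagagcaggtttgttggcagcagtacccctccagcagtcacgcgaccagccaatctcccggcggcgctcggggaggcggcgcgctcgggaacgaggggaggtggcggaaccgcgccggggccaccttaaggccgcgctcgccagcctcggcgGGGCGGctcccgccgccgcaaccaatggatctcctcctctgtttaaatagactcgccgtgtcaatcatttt

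These windows held 3 GC boxes for CDK6, 2 for CCND3, 4 for CDKN1A and 1 for CDKN1B. Over all listed starts of 8 of the 10 genes, 10 of 14 windows held a GC box, against 42.6% of 35116 promoters of the same length. The TATA box letters TATAAA, searched on both strands, were in 0 of the 14 windows and in 10.7% of all promoters. The E2F site letters TTTGGCGC and TTTCGCGC were likewise in 0 of the 14 and in 0.968% of all. GC made up 80.0% of the CDK6 window, 71.2% of the CCND3 window, 76.4% of the CDKN1A window and 64.4% of the CDKN1B window, against a median of 58.0% over all promoters. Some of these genes have other starts. Of the 23 annotated transcripts of CCND3, 3 begin within 100 bases of the start shown and 11 near another, farther upstream, whose window (chr6:42048689-42048938) held 5 GC boxes at 74.4% GC. CDK6 has a second listed start, with 1 of its 5 annotated transcripts at each, and the window of the one not shown held 0 GC boxes at 67.6% GC. Counts per gene do not tell which start was used.

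With SMARCB1 induced, the RNA of CDK6, CCND3 and CDKN1A rose and that of CDKN1B fell. CDK6 rose 1.81-fold, CCND3 1.57-fold and CDKN1A 1.31-fold in mean CPM, and CDKN1B fell to 0.775 of its level in DMSO. The other 6 genes were not called. The 3 called higher set against 8.33% of all genes tested, and the 1 called lower against 5.69%, or 14% in both directions. The median log2 fold change of the 10 genes was 0.25, beside -0.0038 over all genes tested. Scaled to library totals instead, those medians were 0.34 and 0.088. For this comparison no call among the 10 changed when mitochondrially encoded genes were left out.

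**Figure D1:**
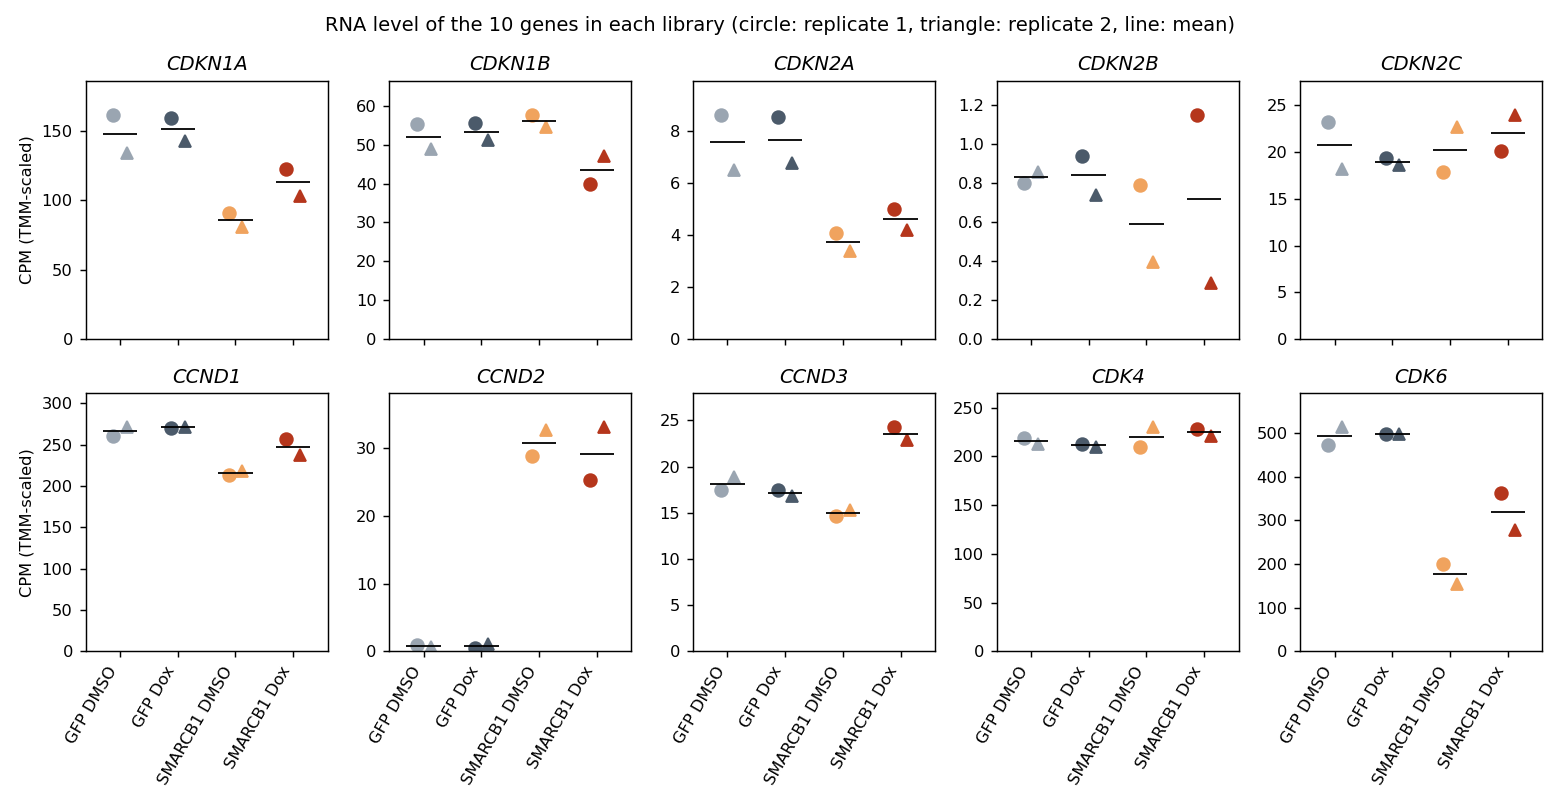
RNA level of each of the 10 genes in CPM (TMM-scaled, vertical axes from 0, a separate scale per gene) in the 4 groups, with a circle for replicate 1, a triangle for replicate 2 and a line at the mean of the 2. CDK6, CCND3 and CDKN1A sit higher and CDKN1B lower in SMARCB1 Dox than in SMARCB1 DMSO, the GFP DMSO and GFP Dox points of every gene overlap, and CCND2 is near 0 in the GFP line.

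CDK6, a catalytic partner of the D cyclins, lies at chr7:92604921-92836573 on the minus strand. It measured 199 and 154 CPM in SMARCB1 DMSO and 362 and 278 CPM in SMARCB1 Dox. In the GFP line it measured 474 and 514 CPM in DMSO and 497 and 499 CPM in Dox. Both SMARCB1 Dox libraries thus lay above both SMARCB1 DMSO libraries and below all 4 GFP-line libraries. With SMARCB1 induced the log2 fold change was 0.86 (SE 0.114, edgeR adjusted p = 1.82e-05), and with GFP induced it was 0.01 (SE 0.112, edgeR adjusted p = 1). These effects differed by 0.85 (SE 0.160, edgeR adjusted p = 0.00267), so the response of CDK6 to Dox was larger in the SMARCB1 line than in the GFP line.

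CCND3 encodes cyclin D3 and lies at chr6:41934934-42050357 on the minus strand. It measured 14.7 and 15.3 CPM in SMARCB1 DMSO and 24.3 and 22.9 CPM in SMARCB1 Dox. In the GFP line the 2 DMSO libraries had 17.4 and 18.9 CPM and the 2 Dox libraries 17.4 and 16.8 CPM. SMARCB1 Dox was the highest of the 4 groups, with no library of another group reaching it. The log2 fold change was 0.65 with SMARCB1 (SE 0.106, edgeR adjusted p = 0.000191) and -0.09 with GFP (SE 0.106, edgeR adjusted p = 1). The difference of 0.74 (SE 0.150, edgeR adjusted p = 0.00479) was called. In all, 2 of the 10 genes had a called difference between the lines, CDK6 and CCND3, both higher, where 4.71% of all genes tested had one, 3.07% higher and 1.64% lower. With the replicate block it was called for 4 of the 10 and for 1282 rather than 750 of all genes.

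CDKN1A, the p21 inhibitor, known for its induction by DNA damage, lies at chr6:36676460-36687337 on the plus strand. It measured 90.8 and 80.8 CPM in SMARCB1 DMSO and 122 and 103 CPM in SMARCB1 Dox. The GFP line held more, 162 and 134 CPM in DMSO and 159 and 142 CPM in Dox. The 2 SMARCB1-line groups did not overlap, and neither reached the GFP line. The log2 fold change with Dox was 0.39 (SE 0.102, edgeR adjusted p = 0.0108), against 0.03 (SE 0.100) in the GFP line. The difference between the lines, 0.37 with a 95% interval of 0.07 to 0.66, did not pass (edgeR adjusted p = 0.18), but passed with the replicate number as a block (0.36, edgeR adjusted p = 0.0132). The rise also rested on single libraries. Without SMARCB1 Dox replicate 1 it was 0.27 (edgeR adjusted p = 0.193), and without SMARCB1 DMSO replicate 2 it was 0.31 (edgeR adjusted p = 0.0895).

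CDKN1B, which encodes p27, lies at chr12:12685498-12722369 on the plus strand and moved the other way. It measured 57.7 and 54.5 CPM in SMARCB1 DMSO and 39.9 and 47.1 CPM in SMARCB1 Dox. The GFP line, at 55.2 and 49.0 CPM in DMSO and 55.6 and 51.1 CPM in Dox, lay above SMARCB1 Dox throughout. The log2 fold change was -0.37 (SE 0.0951, edgeR adjusted p = 0.0115), against 0.03 (SE 0.0943) in the GFP line. The difference between the lines, -0.40 with a 95% interval of -0.68 to -0.12, did not pass (edgeR adjusted p = 0.102), though it did without SMARCB1 Dox replicate 2 (-0.53, edgeR adjusted p = 0.0322). With the replicate block it passed (-0.40, edgeR adjusted p = 0.0291), and with the GC trend also removed it did not (-0.33, edgeR adjusted p = 0.0683). The fall was not called with scaling to library totals (-0.27, edgeR adjusted p = 0.0633), without SMARCB1 Dox replicate 1 (-0.25, edgeR adjusted p = 0.186) or without SMARCB1 DMSO replicate 1 (-0.33, edgeR adjusted p = 0.0747). CDKN1A and CDKN1B, the 2 CIP/KIP genes, were thus called in opposite directions in these cells.

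**Figure D2:**
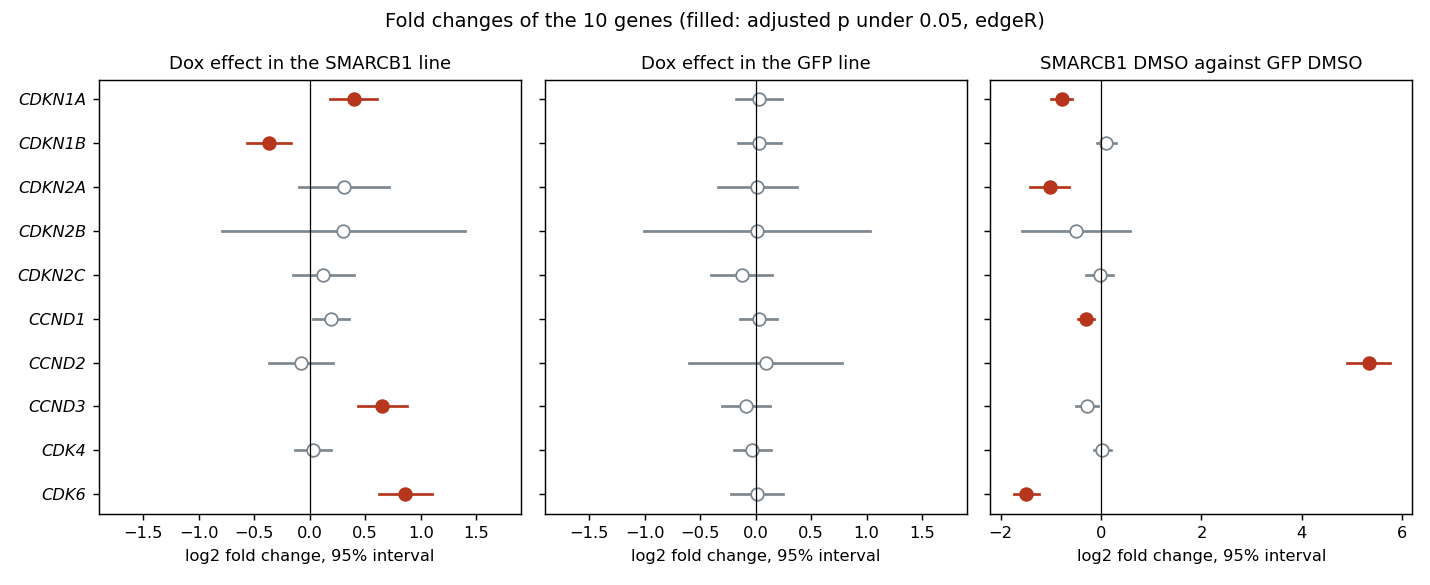
Log2 fold change of the 10 genes with its 95% interval (horizontal axes, filled where the edgeR adjusted p is under 0.05) with induction in the SMARCB1 line (left), with Dox in the GFP line (middle), and for SMARCB1 DMSO against GFP DMSO (right), whose axis is wider. The 4 filled points on the left run from -0.37 for CDKN1B to 0.86 for CDK6, no point is filled for the GFP line, and CCND2 stands at 5.33 on the right.

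The 3 INK4 genes were not called with SMARCB1 by edgeR or by DESeq2, with 0 at an unadjusted p under 0.05 in edgeR. CDKN2A, which encodes p16 and, from another reading frame, p14ARF, lies at chr9:21967752-21995301 on the minus strand. It had 119 and 111 reads without SMARCB1 induction and 178 and 147 with it, against 291 and 249 in the GFP line with DMSO and 262 and 248 with Dox. Mean CPM were 3.72 ± 0.506 (SD, n = 2) without and 4.60 ± 0.562 with induction, and 7.55 ± 1.51 and 7.64 ± 1.23 in the GFP line. Both SMARCB1 Dox libraries were above both SMARCB1 DMSO libraries, but the log2 fold change of 0.31 had a 95% interval from -0.09 to 0.71 (edgeR adjusted p = 0.345). A rise of that upper size was not excluded at this depth. Counts per gene do not tell the p16 transcript from the p14ARF transcript, and 593 of the 3885 exon bases of CDKN2A are shared with the antisense RNA CDKN2B-AS1.

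CDKN2B, the p15 gene next to CDKN2A, had 23 and 13 reads without induction and 41 and 10 with it, and the GFP line had 27 and 33 reads with DMSO and 29 and 27 with Dox. The SMARCB1 Dox replicates bracketed those of SMARCB1 DMSO, and the 95% interval of the log2 fold change ran from -0.79 to 1.39, so that neither a fall nor a rise within these bounds was excluded at this depth. CDKN2C, the p18 gene, measured 17.8 and 22.7 CPM in SMARCB1 DMSO and 20.2 and 24.0 CPM in SMARCB1 Dox. In the GFP line its values were 23.2 and 18.2 CPM in DMSO and 19.3 and 18.6 CPM in Dox. The ranges of CDKN2C in Dox and in DMSO overlapped in both lines, and its log2 fold change with SMARCB1 was 0.12 (95% interval -0.15 to 0.40, edgeR adjusted p = 0.618).

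CCND1, the cyclin D1 gene, measured 214 and 219 CPM in SMARCB1 DMSO and 257 and 237 CPM in SMARCB1 Dox. The GFP line held 261 and 271 CPM in DMSO and 270 and 271 CPM in Dox. The SMARCB1 Dox libraries were above the SMARCB1 DMSO libraries and below those of the GFP line. Its log2 fold change of 0.19 (95% interval 0.03 to 0.35) was not called (edgeR adjusted p = 0.116), and was called when scaled to library totals (0.28, edgeR adjusted p = 0.0291) or with the replicate block (0.19, edgeR adjusted p = 0.0448). CCND2, the cyclin D2 gene, measured 28.9 and 32.7 CPM in SMARCB1 DMSO and 25.3 and 33.1 CPM in SMARCB1 Dox, with a log2 fold change of -0.08 (95% interval -0.36 to 0.21). CDK4, the other kinase partner, measured 210 and 230 CPM in SMARCB1 DMSO and 228 and 221 CPM in SMARCB1 Dox. Its log2 fold change of 0.03 had a narrow 95% interval, -0.13 to 0.19 (edgeR adjusted p = 0.864). In the GFP line CDK4 stayed between 210 and 219 CPM.

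Upon GFP induction edgeR called 0 of the 10, with 0 at an unadjusted p under 0.05 and 0 called by DESeq2. Over all genes tested 0% were called by either tool, and 266 of 15931 had an unadjusted p under 0.05 in edgeR and 116 in DESeq2. Both are below the share of 0.05 expected when no gene changes, so these tests were cautious in the GFP line. The log2 fold changes of the 10 ran from -0.12 for CDKN2C to 0.09 for CCND2. Without overlap between Dox and DMSO libraries stood 6 of the 10 genes upon SMARCB1 induction, beside 51.2% of all genes tested, and 0 upon GFP induction, beside 26.8%.

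**Figure D3:**
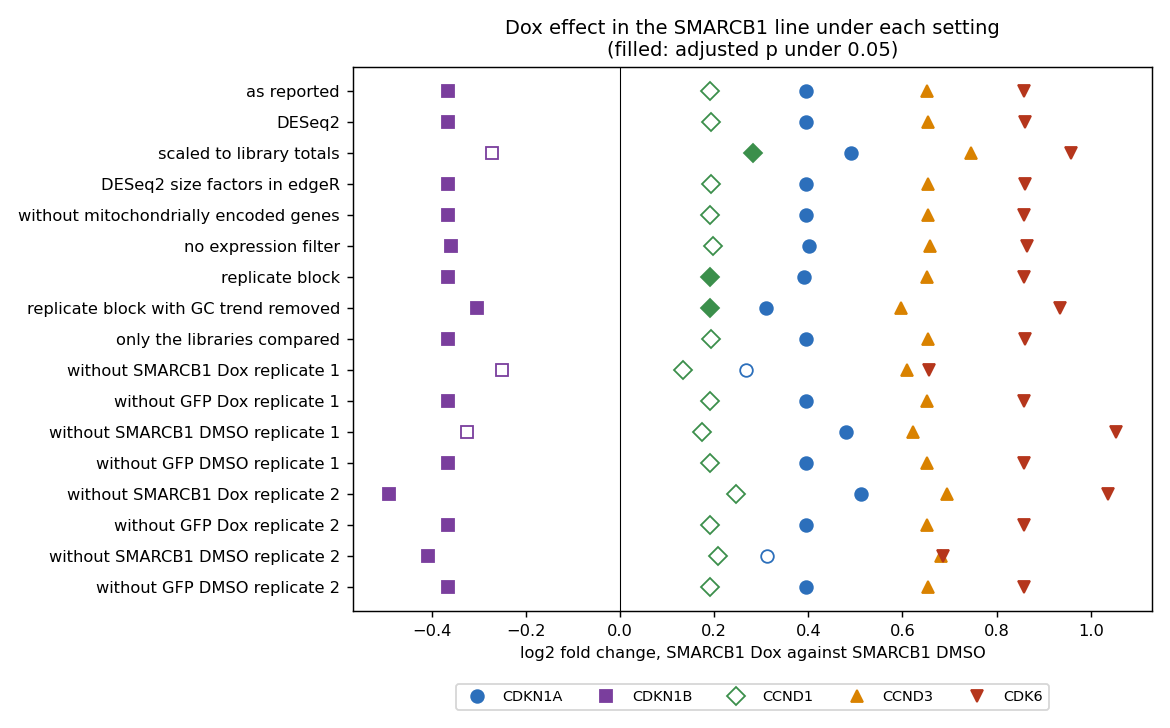
Log2 fold change of CDKN1A, CDKN1B, CCND1, CCND3 and CDK6 in SMARCB1 Dox against SMARCB1 DMSO (horizontal axis) as reported and under each of the 16 alternatives (rows), filled where the adjusted p is under 0.05. CCND3 and CDK6 are filled in every row, CDKN1A and CDKN1B are open in some, and no gene crosses 0.

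The uninduced lines also differed. In SMARCB1 DMSO against GFP DMSO, 5 of the 10 genes were called, where 32% of all genes tested were. CCND2 was called higher, beside 16.3% of all genes, and CDK6, CDKN2A, CDKN1A and CCND1 lower, beside 15.7%. The median log2 fold change of the 10 was -0.29 (all genes tested, 0.015). The SMARCB1 DMSO libraries enter both this comparison and the induction above, so the values are given side by side and the directions are not independent. Each construct is in 1 line, so construct, uninduced leak and origin of the line cannot be told apart.

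CCND2, at chr12:4269771-4305353 on the plus strand, had the largest difference between the uninduced lines among the 10 genes. It had 30, 25, 17 and 38 reads in the GFP DMSO and GFP Dox libraries and 842, 1079, 900 and 1157 in the SMARCB1 DMSO and SMARCB1 Dox libraries. The ratio of mean CPM was 40.0 and the log2 fold change 5.33 (SE 0.207, edgeR adjusted p = 3.81e-15), with Dox adding nothing called in either line. An unnamed protein-coding gene on the same strand shares 999 of its 7988 exon bases.

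CDK6 was lower in SMARCB1 DMSO than in GFP DMSO, at a log2 fold change of -1.48 (SE 0.115, edgeR adjusted p = 8.54e-10). CDKN2A was at -1.02 (SE 0.187, edgeR adjusted p = 0.000186) and CDKN1A at -0.79 (SE 0.102, edgeR adjusted p = 2.39e-06). For these genes every SMARCB1-line library, induced or not, lay below every GFP-line library. CCND1 was at -0.30 (SE 0.0782, edgeR adjusted p = 0.00505) and lost its call without GFP DMSO replicate 2 (-0.28, edgeR adjusted p = 0.0653). CCND3, at -0.28, was just short of the threshold (edgeR adjusted p = 0.0542) and passed it under 6 of the 16 alternatives, among them scaling to library totals (-0.39, edgeR adjusted p = 0.00962) and the replicate block (-0.28, edgeR adjusted p = 0.0298). CDKN1B, CDKN2C and CDK4 differed by 0.11 or less in size, and CDKN2B by -0.50 with a 95% interval from -1.58 to 0.57.

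Levels of different genes were compared as CPM per kilobase of annotated exon. In SMARCB1 DMSO the order of mean levels per kilobase was CDK4 at 71.1, CCND1 at 45.4, CDKN1A at 28.6, CDK6 at 14.4, CDKN2C at 6.71, CDKN1B at 6.06, CCND2 at 3.86, CCND3 at 2.60, CDKN2A at 0.959 and CDKN2B at 0.148. Of neighbours in this order, only the libraries of CDKN2C and CDKN1B overlapped. With the longest transcript as the length, CDKN1B stood above CDKN2C and CCND3 above CCND2, so these 2 pairs have no settled order. At that length the libraries of CDK6 and CDKN1B also overlapped, as did those of CDKN2C and CCND3. In GFP DMSO CDK6 stood at 40.3 and CCND2 at 0.0964 per kilobase.

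**Figure D4:**
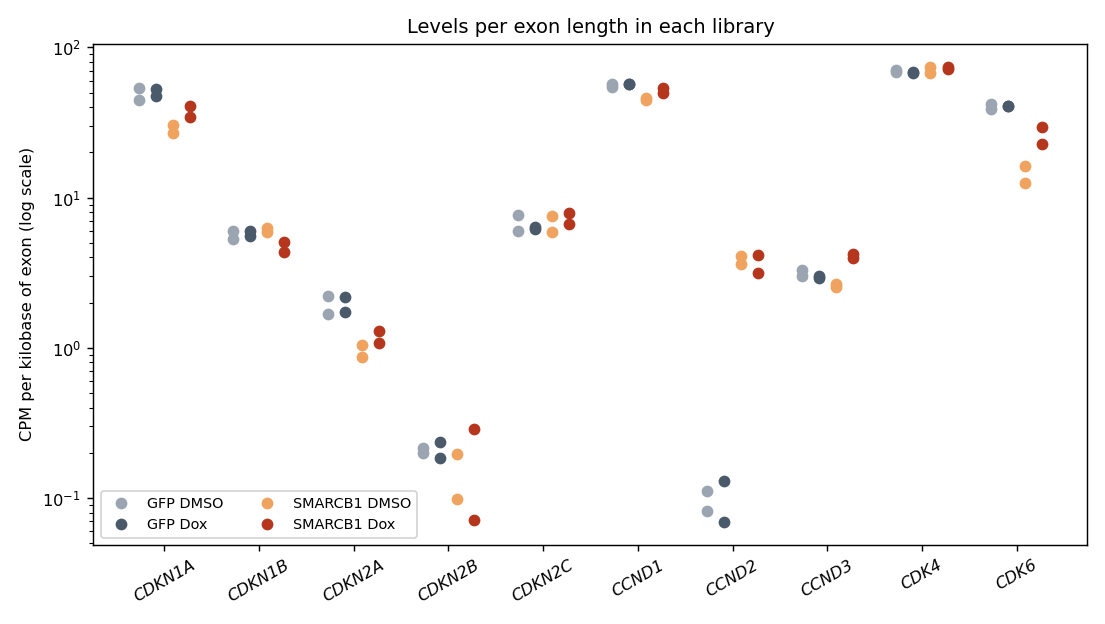
Level of the 10 genes in CPM per kilobase of exon (vertical axis, log scale) in the 8 libraries, coloured by group. CDK4 is highest and stays near 70 in every group, CDKN2B is lowest in the SMARCB1 line, and CCND2 is about 0.1 in the GFP line against 3 to 4 in the SMARCB1 line.

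Within families the leading gene was the same in all 4 groups. Of the summed D cyclin level per kilobase, CCND1 held 94.5% ± 0.110 (SD, n = 2) in GFP DMSO and 87.6% ± 0.517 in SMARCB1 DMSO. In SMARCB1 Dox it held 87.0% ± 1.39, close to its share in SMARCB1 DMSO. CCND2 held 0.164% ± 0.0403 in GFP DMSO and 7.43% ± 0.487 in SMARCB1 DMSO. CCND3 held 5.01% ± 0.0293 in SMARCB1 DMSO and 6.87% ± 0.0150 in SMARCB1 Dox. The D cyclin sum was 51.9 ± 1.17 CPM per kilobase in SMARCB1 DMSO and 59.6 ± 2.40 in SMARCB1 Dox, beside 59.1 ± 1.74 in GFP DMSO. CDK6 held 16.9% ± 3.45 of the CDK4 and CDK6 sum in SMARCB1 DMSO and 26.4% ± 3.18 in SMARCB1 Dox. In the GFP line it held 36.6% ± 1.80 in DMSO and 37.3% ± 0.297 in Dox. Of the 5 inhibitors, CDKN1A held most in every group, from 67.3% ± 2.90 in SMARCB1 DMSO to 78.0% ± 0.341 in GFP Dox. CDKN1B went from 14.3% ± 0.0196 in SMARCB1 DMSO to 9.27% ± 1.69 in SMARCB1 Dox. These shares are descriptions, with no test, and their SD covers only the spread between libraries. They depend on the length used for each gene, here all annotated exon bases. For CCND3 that is 5761 bases, beside 2394 in its longest transcript, and for CDKN1B 9255 beside 4335. With the longest transcript as the length the shares would differ, and they are not given.

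The other inhibitors of the same families had few reads. CDKN1C, the p57 gene, had 1 to 18 reads per library, and CDKN2D, the p19 gene, 19 to 40. Both were tested and neither was called in any comparison, by edgeR or by DESeq2, nor had an unadjusted p under 0.05.

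For genes that work downstream of the D cyclins, counts with SMARCB1 are read beside the share of all genes tested that were called. This was 14%, 8.33% higher and 5.69% lower. At the scaling to library totals, 1986 of 15931 genes were called higher and 497 lower. Under the replicate block these counts were 1755 and 1394. Of 14 genes around cyclin E and CDK2, 2 rose and 0 fell, with a median log2 fold change of 0.12, and 5 were called higher when scaled to library totals. CCNE2, a cyclin that activates CDK2, was at 0.42 (SE 0.127, edgeR adjusted p = 0.0281), and CDC25A, a phosphatase that activates CDKs, at 0.30 (SE 0.0934, edgeR adjusted p = 0.0327). Of the CCNE2 exon bases, 1629 of 4397 are shared with INTS8 on the other strand. Of 18 genes of the RB and E2F group, 1 rose and 1 fell, with a median of 0.0014. RB1, the substrate of CDK4 and CDK6, rose by 0.29 (SE 0.0791, edgeR adjusted p = 0.0156), and E2F7, a repressor E2F, fell by 0.39 (SE 0.131, edgeR adjusted p = 0.0483). The fall of E2F7 was not called by DESeq2, when scaled to library totals, or without mitochondrially encoded genes. Of 15 genes for turnover of these proteins, such as the p27 ubiquitin ligase subunit SKP2, 0 were called by edgeR or by DESeq2, with 2 at an unadjusted p under 0.05 in edgeR, and the median was 0.025. When scaled to library totals, and likewise with the replicate block, edgeR called 1 of the 15 higher. Of the 4 calls named, RB1 was lost without SMARCB1 DMSO replicate 1 or SMARCB1 Dox replicate 2 (edgeR adjusted p = 0.0877 and 0.0844), CCNE2 under 3 of 16 alternatives (edgeR adjusted p up to 0.196), CDC25A under 5 (up to 0.34) and E2F7 under 7 (up to 0.352), in each case with single libraries of the SMARCB1 line left out among them.

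CDKN1A takes part in the response to DNA damage. Of 20 other genes of that response, 2 rose and 2 fell with SMARCB1, beside 8.33 and 5.69% of all genes tested, and the median was 0.03. Scaled to library totals, 2 were called higher and 0 lower, where 1986 and 497 of 15931 genes tested were. FAS, a death receptor, rose by 2.21 (SE 0.411, edgeR adjusted p = 0.000732) from 22 and 10 reads to 105 and 66. ZMAT3, which encodes an RNA-binding zinc finger protein, rose by 0.50 (SE 0.0771, edgeR adjusted p = 0.000109) and had a called difference between the lines of 0.52 (SE 0.109, edgeR adjusted p = 0.00618). DDB2, a sensor of DNA damage, was at -0.32 (SE 0.104, edgeR adjusted p = 0.0421) and PHLDA3, an inhibitor of AKT, at -0.28 (SE 0.0887, edgeR adjusted p = 0.0414). The rises of FAS and ZMAT3 were called under all 16 alternatives, DDB2 was lost under 12 of them (edgeR adjusted p up to 0.192) and PHLDA3 under 8 (up to 0.308). The difference of ZMAT3 was lost without GFP Dox replicate 2 (0.48, edgeR adjusted p = 0.0526).

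Among 13 tested of 15 regulators of the INK4 locus, 1 fell and 0 rose, beside 5.69 and 8.33% of all genes tested, with a median of -0.08. Scaled to library totals the median was 0.017 and 3 were called higher and 1 lower, counts that the replicate block also gave. Of 15931 genes tested, 1986 were called higher and 497 lower at that scaling, and 1755 and 1394 with the block. With the GC trend removed as well as the block, 0 of the 13 were called higher and 2 lower, beside 1789 and 1202 of all genes. BMI1, the Polycomb subunit known for keeping the locus silent, measured 395 and 388 CPM in SMARCB1 DMSO and 232 and 270 CPM in SMARCB1 Dox. It measured 302 and 293 CPM in GFP DMSO and 310 and 288 CPM in GFP Dox. SMARCB1 Dox was thus below every other library, and SMARCB1 DMSO above. The fall of BMI1 was -0.64 (SE 0.0849, edgeR adjusted p = 1.66e-05), and the difference between the lines -0.65 (SE 0.120, edgeR adjusted p = 0.0021). A read-through gene on the same strand, COMMD3-BMI1, shares 1000 of the 4395 exon bases of BMI1. CDKN2A, whose locus BMI1 is known to silence, was not called beside it.

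Around CDKN2A and CDKN2B on chromosome 9, 5 of 9 neighbours passed the filter and 0 were called with SMARCB1 by edgeR or by DESeq2, with 0 at an unadjusted p under 0.05 in edgeR and a median log2 fold change of 0.08. MTAP, a methionine salvage enzyme, had 1253 to 1908 reads, FOCAD 845 to 1379 and KLHL9 1812 to 2738. MLLT3 had 12 to 45 reads. The antisense RNA CDKN2B-AS1 had 28 and 36 reads in SMARCB1 DMSO and 76 and 40 in SMARCB1 Dox, at 0.67 (SE 0.346, edgeR adjusted p = 0.23). DMRTA1 and HACD4 had at most 1 read, and ELAVL2 and IFNE had 0 in every library. Reads were present from CDKN2A, CDKN2B and MTAP in both lines. With Dox in the GFP line, 0 genes of any of these lists were called. Of the genes of these lists, the difference between the lines was called for ZMAT3 and BMI1 alone, and with the replicate block also for FAS and E2F7.

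**Figure D5:**
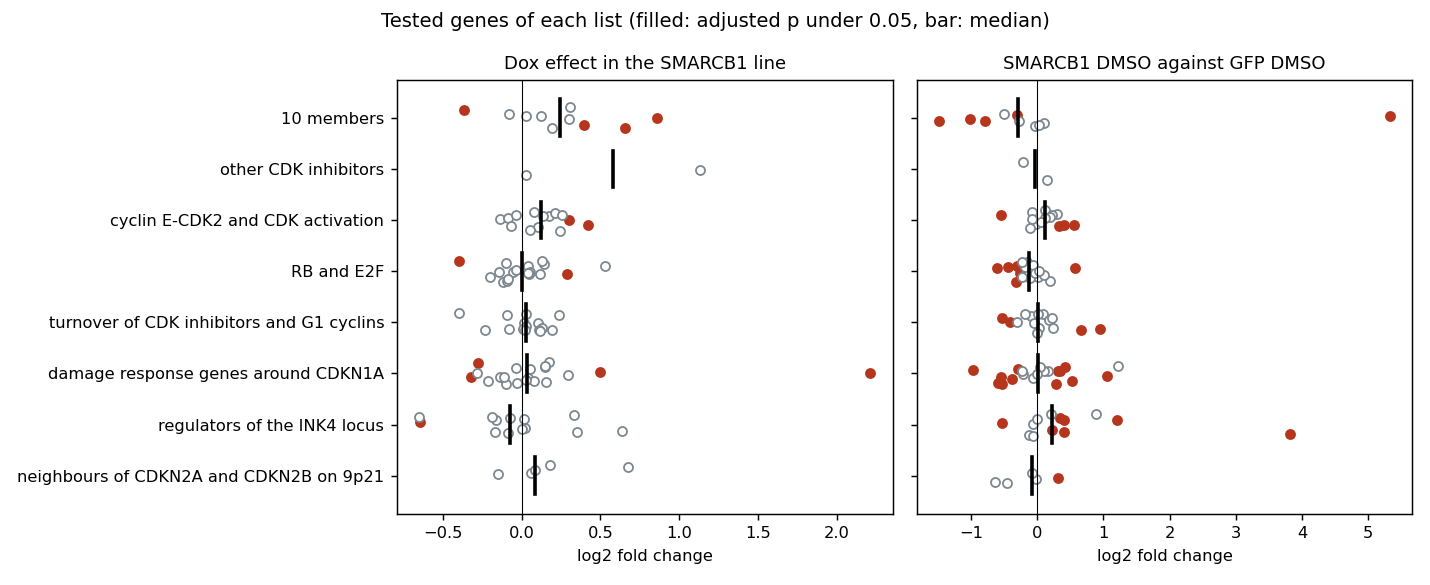
Log2 fold changes (horizontal axes) of every tested gene of each list, filled where the edgeR adjusted p is under 0.05, with a bar at the list's median, upon SMARCB1 induction (left) and SMARCB1 DMSO against GFP DMSO (right). The medians on the left run from -0.08 for the INK4 regulators to 0.58 for CDKN1C and CDKN2D, which were not called, and more points are filled on the right.

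Between the uninduced lines 32% of all genes tested were called, 16.3% higher and 15.7% lower. The counts of these lists are read beside those shares. At the scaling to library totals, 1732 of 15931 genes were called higher and 3658 lower, beside which counts at that scaling are read. The cyclin E list had 3 higher and 1 lower (median 0.12), with CCNI at 0.56, CCNE2 at 0.40 and CCNE1 at -0.55. The RB and E2F list had 1 higher and 5 lower (median -0.13), with E2F1 at 0.57, E2F2 at -0.61 and E2F8 at -0.44. The turnover list had 2 higher and 2 lower (median 0.012), with the ubiquitin ligase subunits FBXW7 at 0.95 and CUL4B at 0.67 higher, and AMBRA1, which targets D cyclins for degradation, at -0.54 and USP2 at -0.42 lower. The damage response list had 6 higher and 6 lower (median 0.017), or 2 higher and 8 lower when scaled to library totals (median -0.097), among them GDF15 at 1.05, BBC3 at 0.52, PLK3 at -0.98 and BTG2 at -0.60. The INK4 regulators had 6 higher and 1 lower (median 0.22), or 4 higher and 2 lower when scaled to library totals, with ETS1, an activator of CDKN2A, at 3.81, TBX2, a repressor of it, at 1.20, and ID1 at -0.54. Of the neighbours MTAP was higher, at 0.32 (edgeR adjusted p = 0.0109), and lost the call without SMARCB1 DMSO replicate 1, without GFP DMSO replicate 2 and when scaled to library totals (edgeR adjusted p up to 0.132). Of the other genes named for this comparison, BBC3 lost its call under 5 of 16 alternatives, CCNE2 under 3, AMBRA1 under 2 and USP2 under 1, in each case without GFP DMSO replicate 2 among them. The rhabdoid markers differed too, with the mesenchymal filament gene VIM at 0.86 and the keratin genes KRT8 at -0.63 and KRT18 at -0.55. With SMARCB1 0 of the 3 were called by edgeR and 1 by DESeq2. With the replicate block edgeR called 1 of the 3 lower with SMARCB1, beside 1394 of 15931 genes tested. For the difference between the lines it called 1 of the 3 lower, beside 506 of all genes.

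Markers of other cell types were at or near 0, apart from the collagens. PTPRC (blood) had 0 to 2 reads, PECAM1 and CDH5 (endothelium) 0 to 3 and 0 to 16, EPCAM and CDH1 (epithelium) 0 to 7 and 7 to 31, and DCN (fibroblasts) 0 to 1. Of the 8 markers 3 were tested and 1 was called with SMARCB1, COL1A1 at 0.37 (SE 0.119, edgeR adjusted p = 0.0404), which was also lower in SMARCB1 DMSO than in GFP DMSO, at -4.81 (SE 0.125, edgeR adjusted p = 3.28e-18). The summed level of the 8 was 368 to 385 CPM in SMARCB1 DMSO, 349 to 474 in SMARCB1 Dox, 769 to 904 in GFP DMSO and 754 to 918 in GFP Dox, and without COL1A1 and COL1A2 it was at most 1.38 CPM. The call of COL1A1 with SMARCB1 was lost under 5 of 16 alternatives (edgeR adjusted p up to 0.344), among them without either SMARCB1 Dox library. The part of these markers in the results was not tested. Bulk RNA cannot tell fewer cells of a kind, such as cells in one phase of the cycle, from less RNA per cell.

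Other genes followed the same pattern over the 8 libraries. By Pearson correlation of log2 CPM over 9817 genes, the nearest to CDK6 were TEX15 (r = 0.995) and TINAGL1 (r = 0.995). The nearest to CCND3 were PHACTR2 (r = 0.987) and PI4K2A (r = 0.980), and the nearest to CDKN1A were DHRS3 (r = 0.989) and IL6R (r = 0.987). These are descriptions over 8 libraries that share their 4 groups.

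Some exons of the 10 genes are shared with genes on the other strand, 1369 of 3094 bases of CDK4 with TSPAN31, 497 of 4761 of CCND1 with LTO1, 617 of 3018 of CDKN2C with a noncoding RNA and 146 of 2996 of CDKN1A with DINOL. Whether counting used the strand is not given in the sources used here, so reads of these stretches may be missing from both genes or counted for either.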

How the data were processed

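Total RNA of 8 G401 libraries was sequenced. The authors aligned reads with STAR to hg38 and deposited a table of read counts per gene for each library, made with HTSeq over exons in intersection-strict mode with GENCODE release 42. Tool versions and the strand option are not given in the sources used here, and the labels and the study's methods name different library kits. In that mode, reads that fit more than 1 gene are counted for none, which lowers genes that share exons.

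The 5 entries that name no gene (27.0 to 29.3% of all reads) were left out. The counts were tested with edgeR 4.0.16 in R 4.3.3 (filterByExpr, TMM, glmQLFit with 1 mean per group over all 8 libraries), with Benjamini-Hochberg adjustment over all genes tested. The procedure was tested on simulated data. Comparisons were Dox against DMSO in each line, the difference between these effects, and SMARCB1 DMSO against GFP DMSO. Exon lengths, positions and overlaps came from GENCODE release 44, and promoters from RefSeq (GRCh38.p14). Of the 10 genes, 8 matched the promoter table. CCND1 and CCND2 did not.

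Libraries with the same replicate number deviated together in all 6 pairs of groups (r = 0.122 to 0.393 between replicate differences over 9948 genes), while the labels do not say what a number marks. Values with the replicate number as a block are given where they change a call of the CDK inhibitors, D cyclins, CDK4 or CDK6. In the other gene lists the block also changed calls, and not all of these are given. With SMARCB1 it called 3 higher and 0 lower in the cyclin E list. In the damage response list it called 2 higher and 3 lower. Over all 15931 genes tested it called 1755 higher and 1394 lower with SMARCB1.

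Alternatives were DESeq2 1.42.0, other scalings, no filter, mitochondrially encoded genes left out, a replicate block, only the libraries compared, and each library left out in turn. The 10 genes and all gene lists were chosen with earlier results of these data known. All 10 were named, with, from each list, the called genes of largest change (up to 3 in each direction with SMARCB1, 2 between the lines), every neighbour of CDKN2A and CDKN2B, and for 3 called members the 2 genes of most similar pattern with a mean of at least 5 CPM (log2 CPM, pseudocount 2). One gene of the damage response list is not reported here and not counted in its values, for a reason unrelated to them. Intervals cover the spread between libraries at these depths.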

Additional observations from a re-analysis of the deposited data

Results flagged for a closer look

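For 4 genes named above, the response to Dox in the SMARCB1 line was not that of the GFP line when the interaction was tested (edgeR's quasi-likelihood test with Benjamini-Hochberg adjustment). The log2 difference, SMARCB1 line minus GFP line, was 0.85 for CDK6 (adjusted p = 0.00267) and 0.74 for CCND3 (adjusted p = 0.00479) among the 10 genes. Among the pathway lists it was -0.65 for BMI1 (adjusted p = 0.0021) and 0.52 for ZMAT3 (adjusted p = 0.00618). Both SMARCB1 Dox libraries lay above both SMARCB1 DMSO libraries for CDK6, CCND3 and ZMAT3, and below them for BMI1.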

How the results depend on the processing

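With 2 libraries per group the spread is known poorly. Of 630 log2 fold changes of the 10 genes under an alternative, 576 kept their direction and call, 6 lost the call, 13 gained it, and 35 that were not called in either setting changed sign. The Dox and difference calls of CDK6 and CCND3 held under every alternative run. With single libraries left out, 2 to 4 of the 10 genes were called with SMARCB1, with 1284 to 2088 of all genes (main 2234, lowest without SMARCB1 Dox replicate 1, and 1462 without SMARCB1 DMSO replicate 1), and 390 to 805 of all genes for the difference (main 750, 469 without SMARCB1 Dox replicate 1 and 390 to 497 without any 1 GFP-line library). Without the filter 1 gene was called in the GFP line. Scaled to library totals, 80.0% of SMARCB1 calls were higher (59.4% with TMM), 80.8% for the difference (65.2%) and 32.1% between the lines (50.9%), where the median of all genes was 0.088, 0.071 and -0.10.

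With the replicate block, 3149 genes, 5 of the 10 among them, were called with SMARCB1 (CCND1 added, adjusted p = 0.0448 in edgeR) and 1282 for the difference, or 1234 with the GC trend also removed. For the difference the block called 4 of the 10, CDKN1A (0.36, edgeR adjusted p = 0.0132) and CDKN1B (-0.40, edgeR adjusted p = 0.0291) being added. With the GC trend also removed it called 3, CDKN1A (0.28, edgeR adjusted p = 0.0388) staying called and CDKN1B not (-0.33, edgeR adjusted p = 0.0683). Between the lines the block added CCND3, and it changed no other call of the 10.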
